A study of Mus musculus with 13 samples.

Results

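The cytosolic ribosomal protein genes of the mouse were followed in RNA-seq counts from 13 libraries of whole lower incisors. Members were the protein-coding genes in the count table whose symbol is Rpl, Rps or Rplp with a number, together with Rpsa. Processed pseudogenes, Rps6k kinases, mitochondrial ribosomal proteins and binding partners were left out. This gave 84 members of 34709 genes in the table. By symbol alone, 49 of these were placed in the large subunit body, 3 in its stalk (Rplp0, Rplp1 and Rplp2) and 32 in the small subunit. A low-count filter kept 83 members for testing, and the exception was Rpl10l, a paralogue known from the testis, with 1 count in all libraries together.

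The libraries came from male mice on postnatal day 5: 3 VDRgem mutants, 5 VDR-null mutants and 5 wild-type controls. VDRgem mice are known to carry a vitamin D receptor (Vdr) that answers synthetic gemini analogs but not the natural hormone, and VDR-null mice to lack a working receptor. The sources used here give neither the strain background nor how each allele was made. Nor do they tie an incisor to an animal. The titles name lower incisors, in the plural, for each library, and p-values reflect how much single libraries vary. No treatment is named for any group. Vdr itself was counted at 107, 205 and 179 CPM (counts scaled to library size) in VDRgem, at 213, 253, 260, 204 and 281 CPM in incisors labelled VDR-null, and at 176, 166, 154, 180 and 142 CPM in control. A count per gene does not show an altered or missing exon, so these values do not check the labels.

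Ribosomal proteins assemble with ribosomal RNA into the large and the small subunit, which join on messenger RNA to make protein. Every growing cell makes them in large and nearly matched amounts, and their messenger RNAs are known to start with a run of pyrimidines through which the kinase mTOR controls their translation. The mouse incisor grows throughout life, with dividing progenitors at its base and secretory enamel- and dentin-forming cells along its length. In a whole tooth, fewer cells of a type and less RNA per cell cannot be told apart.

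Total counts ran from 20405188 to 87783466 per library. Libraries of the same group differed by more than sampling noise (chi-square over degrees of freedom of at least 16.5), so none was a duplicate. The enamel and dentin marker list, led by Amelx, Ambn and Dspp, had a mean level of 9.56 to 10.24 log2 CPM in all 13 libraries. Some single markers varied more. Amelx ran from 10900 to 27600 CPM in VDRgem, 6030 to 37100 in VDR-null and 5520 to 39400 in control. Of the 15 list genes, edgeR called 2 higher and 1 lower in VDRgem than in control, and 0 in VDR-null. DESeq2 called 4 higher and 2 lower in VDRgem, and 1 higher and 0 lower in VDR-null. Markers of oral keratinocytes varied most in VDRgem, where the mean log2 CPM of 12 tested list genes of 14 was 8.86, 7.02 and 3.42 in libraries 1, 2 and 3. The same score was -0.45 to 1.92 in VDR-null and -0.12 to 3.48 in control. Skeletal muscle markers, 13 tested of 15, had a score of 4.02, 1.63 and 1.08 in VDRgem, -1.94, -0.44, 5.40, 0.76 and 2.05 in VDR-null and -1.06 to 1.04 in control, with every VDRgem library above every control. Of 15 immediate early and heat shock genes, which answer tissue handling, 8 were called higher in VDRgem than in control and 0 in VDR-null by edgeR, where 1 was higher and 2 lower at an unadjusted p under 0.05 and DESeq2 called 0. Of 9 erythroid and 9 immune genes tested, edgeR called 0 in VDRgem against control, and 0 and 1, higher, in VDR-null. With an unadjusted p under 0.05, 0 erythroid genes passed in VDRgem, and 2 were lower and 0 higher in VDR-null. Of the immune genes, 2 were higher and 2 lower in VDRgem at that p, and 3 higher and 3 lower in VDR-null. DESeq2 called 0 erythroid genes in either mutant, 0 immune genes in VDRgem, and 2 immune genes higher and 2 lower in VDR-null. Over all genes, edgeR called 4.8% higher and 3.82% lower in VDRgem than in control, and 0.678% and 0.656% in VDR-null. At an unadjusted p under 0.05 these shares were 12.3% and 11.6% in VDRgem and 11.7% and 11.1% in VDR-null. By DESeq2 they were 7.09% and 6.19% in VDRgem and 4.99% and 5.48% in VDR-null.

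Members differed widely in how much of their sequence can be told from copies elsewhere. Ribosomal protein genes have many processed copies in the genome, and reads that match several places equally are commonly left out of gene counts. In the GENCODE M21 annotation on GRCm38 (the assembly called mm10), the share of 50-base stretches of a member's principal transcript that occur in no other annotated gene ran from 1.4% in Rps27 to 100% in members such as Rpl39l, with a median of 41.3%. It was under 50% in 53 of 84 members. Across the 84 members, the Spearman correlation of this share with the control level per kilobase was 0.41, and 0.53 for 100-base stretches. The points share libraries, and the correlation is a description. Exons of another annotated gene overlapped those of 39 members, on the same strand in 28 and on the other strand in 19, among them Rplp2, Rps2, Rpl15, Rpl19, Rpl5 and Rps10. How overlaps and multiple matches were counted is not stated in the sources used here, so levels below compare groups within a member and do not rank members by RNA amount.

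On the scale of CPM per kilobase of transcript, Rplp1, Rpl8, Rpl4, Rps14 and Rps15 were among the highest members. Rplp1 stood at 964 ± 340 CPM per kilobase in VDRgem (SD, n = 3), 424 ± 155 in VDR-null (n = 5) and 887 ± 229 in control (n = 5). Rpl8, a protein at the catalytic core of the large subunit, stood at 746 ± 189 CPM per kilobase in VDRgem, 567 ± 79.4 in VDR-null and 775 ± 60.2 in control. Rpl4, which lines the exit tunnel of the nascent protein, stood at 700 ± 141 CPM per kilobase in VDRgem, 695 ± 71 in VDR-null and 718 ± 30.4 in control. Every VDR-null library lay below every control for Rpl8, but the log2 fold change of -0.45 missed the threshold (SE 0.13, edgeR adjusted p = 0.0781). For Rpl4, VDR-null and control overlapped, with a log2 fold change of -0.05 (SE 0.11, edgeR adjusted p = 0.839). At the other end, Rpl3l, Rpl24, Rps16, Rps29 and Rpl23a had control means of 0.135, 0.403, 0.662, 0.887 and 0.925 CPM per kilobase, with Rpl10l below them all. The 10 highest members held 61.9% of the members' counts, and 24 members had under 100 counts in at least 1 library.

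**Figure D1:**
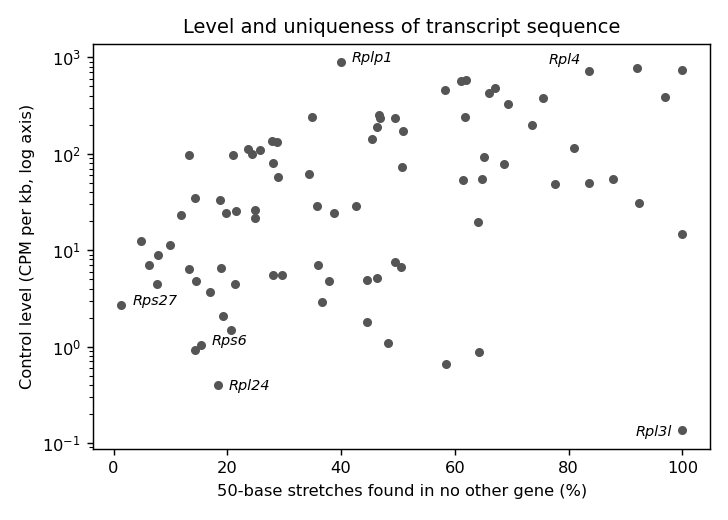
Control level of each member in CPM per kilobase (log axis, mean of 5 libraries) against the percentage of its 50-base stretches that occur in no other annotated gene. Members with a low share, such as Rps27 at 1.4%, lie mostly in the lower part of the plot, whereas Rpl3l is low although its sequence is 100% unique.

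The short pyrimidine motifs CTTTC and CTTCC were looked for near the start in the RefSeq promoter sequences (GRCm38.p6). These sequences held 76 starts for 64 of the 84 members. Windows of 20 bases before and 20 bases from the start on are shown for the 11 members that were called in any comparison below and have a single start in the table: Rpl39l, called in VDRgem; Rplp2, Rps2 and Rps7, called in VDR-null; and Rplp0, Rpl15, Rpl18, Rpl27, Rpl37, Rps9 and Rps27, called between the mutants. Capitals mark CTTTC or CTTCC on the transcribed strand. Other pyrimidine runs were not searched for and stay unmarked, as in the window of Rps9.
Rpl39l (chr16:10170208-10170247, plus strand): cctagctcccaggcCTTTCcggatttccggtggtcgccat
Rplp2 (chr7:141447631-141447670, plus strand): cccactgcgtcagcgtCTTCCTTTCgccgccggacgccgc
Rps2 (chr17:24720043-24720082, plus strand): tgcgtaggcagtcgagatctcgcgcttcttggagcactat
Rps7 (chr12:28635934-28635973, minus strand): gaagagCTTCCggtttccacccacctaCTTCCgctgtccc
Rplp0 (chr5:115559447-115559486, plus strand): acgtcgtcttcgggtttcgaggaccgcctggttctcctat
Rpl15 (chr14:18270967-18271006, minus strand): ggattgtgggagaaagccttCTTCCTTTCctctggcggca
Rpl18 (chr7:45718051-45718090, plus strand): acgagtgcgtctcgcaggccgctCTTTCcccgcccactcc
Rpl27 (chr11:101442225-101442264, plus strand): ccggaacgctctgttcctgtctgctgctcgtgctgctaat
Rpl37 (chr15:5116593-5116632, plus strand): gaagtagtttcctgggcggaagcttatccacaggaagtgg
Rps9 (chr7:3704021-3704060, plus strand): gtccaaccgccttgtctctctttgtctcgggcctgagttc
Rps27 (chr3:90213629-90213668, minus strand): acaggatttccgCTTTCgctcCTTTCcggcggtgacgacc
A marked motif stood in 6 of these 11 windows, those of Rpl39l, Rplp2, Rps7, Rpl15, Rpl18 and Rps27, and in none of Rps2, Rplp0, Rpl27, Rpl37 and Rps9. Within 25 bases on either side of the start, either motif was found on the transcribed strand at 33 of 76 member starts, or 43.4%, and at 16.5% of all starts, so most member starts held neither. CTTTC was found on the transcribed strand at 25% of member starts and 6.75% of all 32851 starts in the table. CTTCC was found at 26.3% of member starts and 10.6% of all starts, and both can overlap, as in Rplp2. On the other strand, either motif was found at 26.3% of member starts and 17.2% of all starts, where CTTCC reads as GGAAG, the core of the ETS factor motif. A match is a description of these letters only.

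As a class, ribosomal protein genes took a smaller share of the counts in VDR-null than in control. The 84 members held 0.921%, 0.82% and 0.608% of the counts in VDRgem 1, 2 and 3. They held 0.815%, 0.602%, 0.704%, 0.791% and 0.731% in VDR-null, and 0.921%, 0.914%, 0.871%, 0.914% and 0.867% in control. Every VDR-null library lay below every control, whereas the VDRgem libraries spread from the top of the control range to near the bottom of the VDR-null range. The means were 0.783% ± 0.16 in VDRgem (SD, n = 3), 0.729% ± 0.0835 in VDR-null (n = 5) and 0.898% ± 0.0261 in control (n = 5), so VDR-null held 0.812 times the control share. In VDRgem the share and the keratinocyte score had the same order, highest in library 1 and lowest in library 3. The part of these cells in the members' levels was not tested beyond the alternatives given here and in the closing section.

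**Figure D2:**
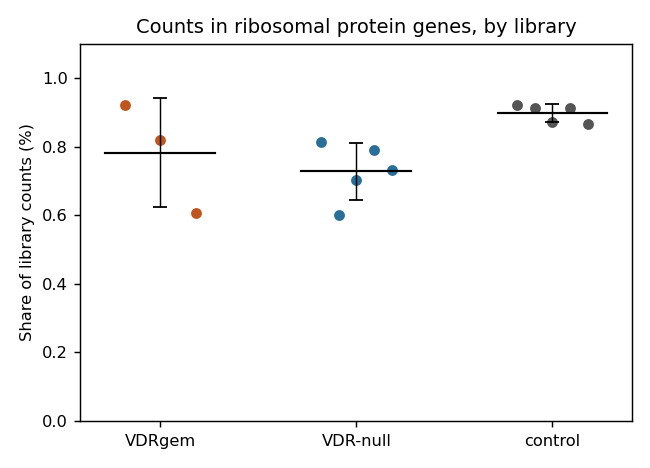
Percentage of all counts in each library that fell in the 84 ribosomal protein genes, for VDRgem, VDR-null and control. Points are libraries, lines are means and bars are SD; all 5 VDR-null libraries lie below the lowest control at 0.867%.

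The comparison of VDR-null with control asks what differs in the incisor without a working receptor. Most members had a lower level in VDR-null, by a modest amount, and a few had a much lower level. The median log2 fold change was -0.26 over the 83 members tested and 0.01 over all 17837 genes tested, and 73 of 83 members were negative, against 48.5% of all genes. The edgeR quasi-likelihood test with Benjamini-Hochberg adjustment called 4 members lower, Rpl36, Rps7, Rplp2 and Rps2, where the background was 0.656% of all genes, and 0 members higher, where the background was 0.678% (1.33% either way). At an unadjusted p under 0.05, 36 members were lower and 3 higher, against 11.1% and 11.7% of all genes, and DESeq2 called 24 lower and 1 higher of the 80 to which it gave an adjusted p, against 5.48% and 4.99% of all genes. In 24 members every VDR-null library lay below every control, against 3.18% of all genes, and 0 members had every VDR-null library above, against 3.91%.

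By part of the ribosome, the median log2 fold change in VDR-null was -0.92 over the 3 stalk members, -0.28 over 32 small subunit members and -0.22 over 48 large subunit members. In 30 members with at least 50% unique sequence the median was -0.29, and in 12 of them every VDR-null library lay below every control. In 53 members with less unique sequence the median was -0.24, 12 had every VDR-null library below control, and all 4 calls were among them. The number of members called depended on single libraries. It was 0 without control 1, 2, 3 or 4 or VDR-null 2, and 1 without VDRgem 2 or VDR-null 1. It was 2 without VDR-null 5, 5 without VDR-null 4, 6 without control 5 and 8 without VDR-null 3. It was 14 without VDRgem 1 and 23 without VDRgem 3. The calls over all genes moved too. There were 238 with all libraries, 6 to 10 in the fits with 0 members called, 42 without VDRgem 2 and 31 without VDR-null 1. There were 155 without VDR-null 5, 450 without VDR-null 4, 217 without control 5 and 498 without VDR-null 3. Without VDRgem 1 there were 680, and without VDRgem 3 there were 685. In the last of these fits 27.7% of members and 3.75% of all genes were called. Across these fits the median stayed between -0.28 and -0.23.

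**Figure D3:**
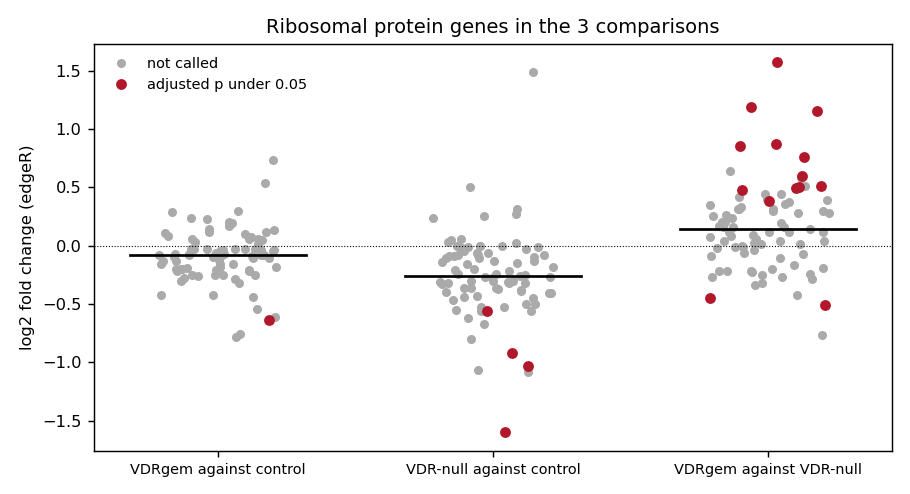
Log2 fold change of each of the 83 tested members (edgeR) in the 3 comparisons. Points are members, red where the adjusted p was under 0.05, and black lines are medians, at -0.08 for VDRgem against control, -0.26 for VDR-null against control and 0.14 for VDRgem against VDR-null; comparisons that share a group share its libraries.

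The stalk genes had the lowest median of the 3 classes in VDR-null. The stalk is the arm of the large subunit that draws in elongation factors; Rplp0 anchors it, and Rplp1 and Rplp2 bind in pairs to Rplp0. Rplp2 (ENSMUSG00000025508; chromosome 7, 141447370 to 141451585, plus strand) was counted at 158, 128 and 73.0 CPM in VDRgem. In VDR-null it stood at 50.7, 42.5, 63.1, 61.8 and 52.6 CPM, against 127, 106, 105, 95.1 and 79.0 CPM in control. All VDR-null libraries lay below all others. The log2 fold change of VDR-null against control was -0.92 (SE 0.18, edgeR adjusted p = 0.0385). It missed the threshold without control 1, 2, 3 or 4, VDRgem 2 or VDR-null 1, 2 or 5, with edgeR adjusted p of 0.058 to 0.103.

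Rplp1 (ENSMUSG00000007892; chromosome 9, 61913284 to 61914542, minus strand) was counted at 650, 482 and 311 CPM in VDRgem. The VDR-null libraries held 103, 165, 282, 280 and 228 CPM, against 575, 507, 472, 377 and 283 CPM in control. The VDR-null libraries lay below all others, with the highest of them next to the lowest control, and the log2 fold change against control was -1.07 (SE 0.28, edgeR adjusted p = 0.0609), which missed the threshold. Rplp0 (ENSMUSG00000067274; chromosome 5, 115559467 to 115563727, plus strand) was counted at 871, 671 and 468 CPM in VDRgem. Its levels were 395, 440, 509, 531 and 478 CPM in VDR-null, against 648, 615, 624, 608 and 596 CPM in control. The VDR-null and control libraries did not overlap, and the log2 fold change was -0.39 (SE 0.13, edgeR adjusted p = 0.108). Rpl12, which sits at the base of the stalk, showed no such gap, with a log2 fold change of -0.08 (SE 0.11, edgeR adjusted p = 0.709).

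Against control, the stalk genes of VDRgem had log2 fold changes of 0.12 for Rplp0, 0.12 for Rplp1 and 0.23 for Rplp2, with edgeR adjusted p of 0.701, 0.863 and 0.557. VDRgem 1 was the highest of the VDRgem libraries for each, and without it the log2 fold changes were -0.13, -0.17 and -0.04. Between the mutants, all 3 were called higher in VDRgem, with log2 fold changes of 0.51 (SE 0.15, edgeR adjusted p = 0.0347) for Rplp0, 1.19 (SE 0.31, edgeR adjusted p = 0.0203) for Rplp1 and 1.15 (SE 0.21, edgeR adjusted p = 0.00508) for Rplp2.

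**Figure D4:**
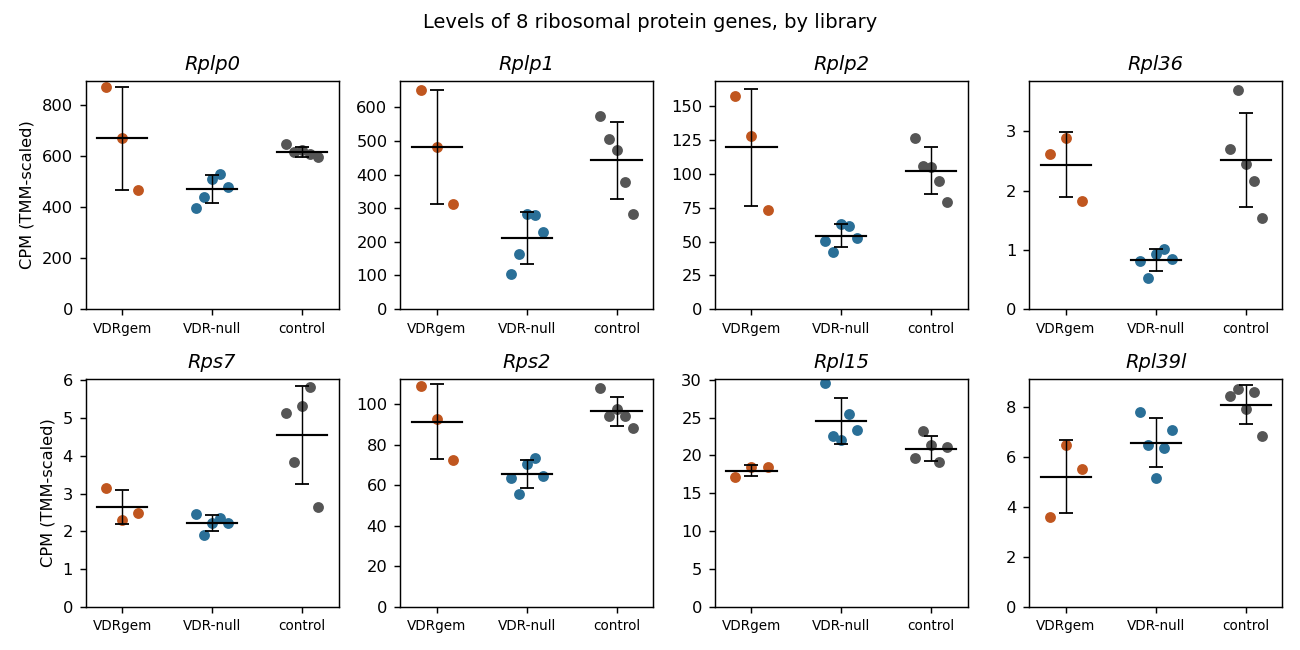
Level in CPM after TMM scaling of 8 members in each VDRgem, VDR-null and control library. Points are libraries, lines are means and bars are SD; Rplp1, Rplp2 and Rpl36 lie lower in every VDR-null library than in any VDRgem or control library, and Rpl15 and Rpl39l do not follow that pattern.

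Among large subunit genes the greatest difference from control was in Rpl36, a protein with no counterpart in bacterial ribosomes (ENSMUSG00000057863; chromosome 17, 56613416 to 56614243, plus strand). It was counted at 2.61, 2.88 and 1.83 CPM in VDRgem. It reached 0.816, 0.520, 0.929, 1.01 and 0.840 CPM in VDR-null, against 2.71, 3.69, 2.45, 2.17 and 1.54 CPM in control. No VDR-null library reached the lowest library of the other groups. The log2 fold change was -1.60 in VDR-null against control (SE 0.25, edgeR adjusted p = 0.018) and -0.03 in VDRgem against control (SE 0.27, edgeR adjusted p = 0.964). Without control 1, 2, 3 or 4 or VDR-null 2, the edgeR adjusted p of the first value was 0.0519 to 0.0644. This gene was counted thinly, with 23 counts in its lowest library, and 18.9% of its 50-base stretches are unique.

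Rpl38, a member known in the mouse for its role in translating Hox transcripts, was counted at 0.518, 0.462 and 0.378 CPM in VDRgem. In VDR-null it stood at 0.430, 0.233, 0.242, 0.233 and 0.280 CPM, against 0.742, 0.710, 0.665, 0.674 and 0.305 CPM in control. Control 5 lay among the VDR-null libraries, and the log2 fold change of -1.08 in VDR-null missed the threshold (SE 0.29, edgeR adjusted p = 0.0628).

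A small number of large subunit genes had the opposite sign. Rpl15, a large subunit protein whose gene is mutated in some Diamond-Blackfan anaemia patients, was counted at 17.1, 18.4 and 18.4 CPM in VDRgem. Its levels were 29.5, 22.5, 22, 25.4 and 23.4 CPM in VDR-null, against 19.6, 23.2, 21.4, 19.1 and 21.1 CPM in control. All VDRgem libraries lay below all others, but neither mutant passed against control, at -0.21 (SE 0.1, edgeR adjusted p = 0.227) for VDRgem and 0.24 (SE 0.09, edgeR adjusted p = 0.143) for VDR-null. Rpl24, a protein at a bridge between the subunits, had the largest positive log2 fold change in VDR-null after Rpl3l, at 0.50 (SE 0.35, edgeR adjusted p = 0.417), from levels under 0.7 CPM in every library.

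Among small subunit genes Rps7 and Rps2 were called lower in VDR-null. Rps7, also mutated in some Diamond-Blackfan anaemia patients (ENSMUSG00000061477; chromosome 12, 28630854 to 28635953, minus strand), was counted at 3.16, 2.31 and 2.49 CPM in VDRgem. It reached 2.45, 1.90, 2.22, 2.35 and 2.21 CPM in VDR-null, against 5.13, 3.83, 5.31, 5.84 and 2.64 CPM in control. Control 5 lay within the VDRgem range, and every control lay above every VDR-null library. The log2 fold change was -0.78 in VDRgem (SE 0.23, edgeR adjusted p = 0.0535) and -1.03 in VDR-null (SE 0.20, edgeR adjusted p = 0.0356), and only the second passed. The difference between the mutants was 0.25 (SE 0.23, edgeR adjusted p = 0.453). The VDR-null value missed the threshold without control 1, 2, 3 or 4, VDRgem 2 or VDR-null 1, 2 or 5, with edgeR adjusted p of 0.0513 to 0.0996.

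Rps2, a protein beside the messenger RNA entry site (ENSMUSG00000044533; chromosome 17, 24718116 to 24721929, plus strand), was counted at 109, 92.8 and 72.2 CPM in VDRgem. In VDR-null it stood at 63.7, 55.5, 70.4, 73.2 and 64.3 CPM, against 108, 94.0, 97.6, 94.1 and 88.4 CPM in control. VDR-null and control did not overlap, and VDRgem spanned both. The log2 fold change was -0.56 in VDR-null against control (SE 0.1, edgeR adjusted p = 0.034) and -0.08 in VDRgem against control (SE 0.12, edgeR adjusted p = 0.742). The first value missed the threshold without control 1, 2, 3 or 4, VDRgem 2 or VDR-null 1 or 2, with edgeR adjusted p of 0.0522 to 0.0949.

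Rps21, a small subunit protein with no counterpart in bacteria, was counted at 107, 96.1 and 64.1 CPM in VDRgem. The VDR-null libraries held 37.4, 43.0, 58.3, 56.4 and 49.2 CPM, against 88.0, 87.2, 83.5, 70.4 and 60.1 CPM in control. Every VDR-null library lay below every other library, and the log2 fold change of -0.67 against control missed the threshold (SE 0.16, edgeR adjusted p = 0.0519). Rps13, another small subunit protein, had a positive value, 0.31 in VDR-null (SE 0.20, edgeR adjusted p = 0.365).

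The comparison of VDRgem with control asks what changes when the receptor is present but cannot answer its natural ligand. Few ribosomal protein genes passed there. The median log2 fold change was -0.08 over the members and 0 over all genes tested, and 59 of 83 members were negative, against 49.9% of all genes. The edgeR quasi-likelihood test called 1 member lower, Rpl39l, where the background was 3.82% of all genes, and 0 higher, where it was 4.8% (8.62% either way). At an unadjusted p under 0.05, 6 members were lower and 1 higher, against 11.6% and 12.3% of all genes, and DESeq2 called 3 lower and 0 higher, against 6.19% and 7.09%. In 9 members every VDRgem library lay below every control, against 10.3% of all genes, and 0 lay above, against 9.01%. The shares of members called or without overlap were near or below the background, whereas the share below 0, at 71.1%, was above it.

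Rpl39l, a paralogue of the exit-tunnel gene Rpl39 that is known from the male germ line (ENSMUSG00000039209; chromosome 16, 10170226 to 10174911, plus strand), was counted at 3.61, 6.47 and 5.52 CPM in VDRgem. Its levels were 7.78, 6.49, 5.17, 6.35 and 7.07 CPM in VDR-null, against 8.42, 8.71, 7.92, 8.60 and 6.83 CPM in control. VDRgem lay below control throughout, with VDRgem 1 the lowest. The log2 fold change was -0.64 (SE 0.18, edgeR adjusted p = 0.0441), and -0.45 without VDRgem 1 (edgeR adjusted p = 0.21). It also missed the threshold without VDRgem 3, any 1 control, or VDR-null 2, 4 or 5, with edgeR adjusted p of at least 0.0521. Rps10, a small subunit protein marked with ubiquitin on stalled ribosomes, was counted at 1.30, 1.1 and 1.49 CPM in VDRgem. It reached 1.55, 1.65, 1.09, 1.2 and 2.32 CPM in VDR-null, against 2.00, 3.03, 2.03, 1.98 and 2.09 CPM in control. VDRgem lay below control without overlap, but the log2 fold change of -0.76 missed the threshold (SE 0.25, edgeR adjusted p = 0.0755).

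These values moved with single VDRgem libraries. Without VDRgem 3, the VDRgem library with the smallest member share, 4 members were called and all were higher, with a median log2 fold change of 0.06; that is 4.82% of the members, against 11.1% of all genes called in the same fit. Without VDRgem 1 the median was -0.20 and 0 were called, against 66 of all genes; the count was also 0 without control 1, 2, 3 or 4, VDR-null 2 or VDR-null 4. With the keratinocyte score as a covariate the median was -0.36, and with VDRgem 3 as the only VDRgem library it was -0.41, with 0 members called in both, against 0 and 5 of all genes.

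Between the mutants, more ribosomal protein genes were higher in VDRgem than lower. The median log2 fold change of VDRgem against VDR-null was 0.14 over the members and -0.02 over all genes tested. The edgeR quasi-likelihood test called 12 members higher, where the background was 10.6% of all genes, and 2 lower, where it was 8.18% (18.8% either way). As 12 of 83 is 14.5%, the share that edgeR called higher was close to the background, and the share called lower, 2.41%, was below it. The calls higher in VDRgem included Rpl36, Rplp2, Rps21, Rps2, Rplp1, Rps9, Rpl37, Rps27, Rpl18, Rpl27 and Rplp0. In 7 members every VDRgem library lay above every VDR-null library, against 9.17% of all genes, and in 3 below, against 8.84%. At an unadjusted p under 0.05, 30.1% of members were higher and 3.61% lower, against 17.5% and 17.2% of all genes. DESeq2 called 20.5% of members higher and 2.41% lower, against 13.3% and 10.7%. The share of members below 0 was 32.5%, against 52.9% of all genes.

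The largest of these differences was in Rpl36, with a log2 fold change of 1.57 (SE 0.27, edgeR adjusted p = 0.00421). Rps21 had 0.87 (SE 0.18, edgeR adjusted p = 0.00774) and Rps2 0.48 (SE 0.12, edgeR adjusted p = 0.0165). Rps9, whose counterparts in bacteria and yeast affect decoding accuracy, was counted at 444, 383 and 279 CPM in VDRgem and at 234, 228, 295, 285 and 265 CPM in VDR-null. VDRgem 3 lay within the VDR-null range, and the log2 fold change was 0.50 (SE 0.13, edgeR adjusted p = 0.0209). Rpl15 and Rpl19 were called lower in VDRgem, at -0.45 (SE 0.1, edgeR adjusted p = 0.0127) and -0.51 (SE 0.17, edgeR adjusted p = 0.04996). Rpl19 was counted at 0.978, 0.902 and 0.891 CPM in VDRgem, 1.36, 1.29, 1.54, 1.18 and 1.25 CPM in VDR-null and 1.26, 1.09, 0.998, 1.1 and 1.11 CPM in control, with the VDRgem libraries below all others. Leaving out any 1 of the 13 libraries ended the call of Rpl19, with edgeR adjusted p of 0.0559 to 0.154, whereas Rpl36 and Rplp2 passed in each of these fits. The 14 calls either way became 2 without VDRgem 1, 5 without VDRgem 2 and 34 without VDRgem 3, and 0 with VDRgem 3 alone or with the keratinocyte score as a covariate, where the median was -0.13 and -0.21. In the same order, 2.39%, 9.19%, 25.2%, 0.168% and 0.0729% of all genes were called in these fits.

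Several ribosomal protein genes have a paralogue of tissue-restricted or variant use, and the ratio of the pair within a library does not depend on the scaling. Rpl39l was counted at 0.0962, 0.195 and 0.261 times Rpl39 in VDRgem, at 0.213 to 0.331 times in VDR-null and at 0.238 to 0.312 times in control. VDRgem 1 and 2 lay below all other libraries and VDRgem 3 within the control range. Rps27l, a paralogue of Rps27 known as a p53 target, was counted at 17.2, 14.7 and 16.7 times Rps27 in VDRgem, at 21.2 to 45.9 times in VDR-null and at 19.5 to 32.1 times in control. The VDRgem ratios lay below all others. Rps27 itself was counted at 1.52, 1.52 and 1.04 CPM in VDRgem, against 0.702, 0.824, 0.525, 0.874 and 0.789 CPM in VDR-null and 0.742, 1.33, 0.892, 0.906 and 0.836 CPM in control. Rps27 was called higher in VDRgem than in VDR-null, at 0.85 (SE 0.23, edgeR adjusted p = 0.0249). Rps27 had as few as 13 counts in a library and 1.4% unique sequence, and since the counting of multiple matches is not stated, the ratio is not read as one of RNA amounts.

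Rpl3l, the paralogue of Rpl3 made in skeletal and heart muscle, was counted at 0.537, 0.220 and 0.208 CPM in VDRgem. In VDR-null it stood at 0.1, 0.538, 1.74, 0.116 and 0.458 CPM, against 0.0968, 0.189, 0.166, 0.190 and 0.289 CPM in control. It was highest in VDR-null 3, the library with the highest muscle score, where the muscle actin Acta1 stood at 159 CPM. Acta1 stood at 63.0 CPM in VDRgem 1 and at 0.774 to 9.65 CPM in control. VDR-null 2 held as much Rpl3l as VDRgem 1, with Acta1 at 1.67 CPM, within the control range. The log2 fold change of Rpl3l was 0.73 in VDRgem (SE 0.78, edgeR adjusted p = 0.62) and 1.49 in VDR-null (SE 0.69, edgeR adjusted p = 0.215), and the part of muscle in it was not tested.

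In the other pairs the ranges of each mutant and control overlapped, though single libraries lay apart. Rpl22l1 was 0.158 to 0.207 times Rpl22 in VDRgem, 0.190 to 0.231 times in VDR-null and 0.174 to 0.231 times in control. Rpl7l1 was 0.201 to 0.255 times Rpl7 in VDRgem, 0.249 to 0.294 times in VDR-null and 0.234 to 0.273 times in control. VDRgem 1 and 2, at 0.207 and 0.201, lay below all other libraries, and VDRgem 3 within the control range. Rpl36al was 0.406 to 0.589 times Rpl36a in VDRgem, 0.340 to 0.840 times in VDR-null and 0.555 to 0.705 times in control. VDRgem 2 and 3, at 0.406 and 0.471, lay below every control, and VDRgem 1 within the control range. VDR-null 2, 4 and 5 also lay below every control, whereas VDR-null 1 and 3 lay above. The ranges overlapped between VDR-null and control for each of these 3 pairs, and between VDRgem and control for each as well.

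Rpl5 and Rpl11 bind the 5S ribosomal RNA and are known to hold back Mdm2, and with it to raise p53, when ribosome assembly is disturbed. Rpl5 was counted at 15.7, 15 and 14.9 CPM in VDRgem and at 19.3, 15.6, 16.6, 16.9 and 18.2 CPM in VDR-null, against 11.9, 15, 16.0, 13.8 and 14.9 CPM in control. VDR-null and control overlapped, and the log2 fold change in VDR-null was 0.27 (SE 0.09, edgeR adjusted p = 0.0972). Rpl11 had -0.08 in VDRgem (SE 0.17, edgeR adjusted p = 0.832) and -0.28 in VDR-null (SE 0.15, edgeR adjusted p = 0.281). Of 19 tested p53 target genes, edgeR called 0 higher and 1 lower in VDRgem, and 0 in either direction in VDR-null. In each mutant, 3 were higher and 2 lower at an unadjusted p under 0.05. DESeq2 called 1 higher and 2 lower in VDRgem and 2 higher and 1 lower in VDR-null. Over all genes, 12.3% were higher and 11.6% lower in VDRgem at that unadjusted p, and 11.7% and 11.1% in VDR-null. By DESeq2 these shares were 7.09% and 6.19% in VDRgem and 4.99% and 5.48% in VDR-null.

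Members with more G and C in their transcripts tended to have lower values in VDR-null. In VDR-null against control, the median log2 fold change was -0.53 over 17 members of at least 55% GC, -0.28 over 38 of 50% to 55%, and -0.1 over 28 of under 50%. All other genes tested had the same order, at -0.21, -0.02 and 0.12, so the members lay lower than other genes in each class. The Spearman correlation of log2 fold change with GC was -0.50 over the 83 members and -0.51 over 17739 other genes. In VDRgem against control the correlation was -0.05 over the members and 0.13 over other genes. Genes in this correlation share libraries and are not replicates.

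Single libraries also differed in this respect. The correlation over all genes between GC and a gene's level, taken relative to its mean over libraries, was -0.55, -0.41, 0.06, -0.14 and -0.40 in VDR-null 1 to 5, against -0.11 to 0.36 in control and -0.06 to 0.37 in VDRgem. An offset that removes each library's GC trend was added after the values were seen. With it the median was -0.22 in VDR-null against 0.03 over all genes. It left 1 member called, Rpl36, or 1.2% of members, against 0.191% of all genes. With a length trend removed as well the median was -0.15, and 0 members and 0.252% of all genes were called. Without an offset, 4.82% of members and 1.33% of all genes were called. The part of sequence composition in these differences was not tested beyond these fits.

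**Figure D5:**
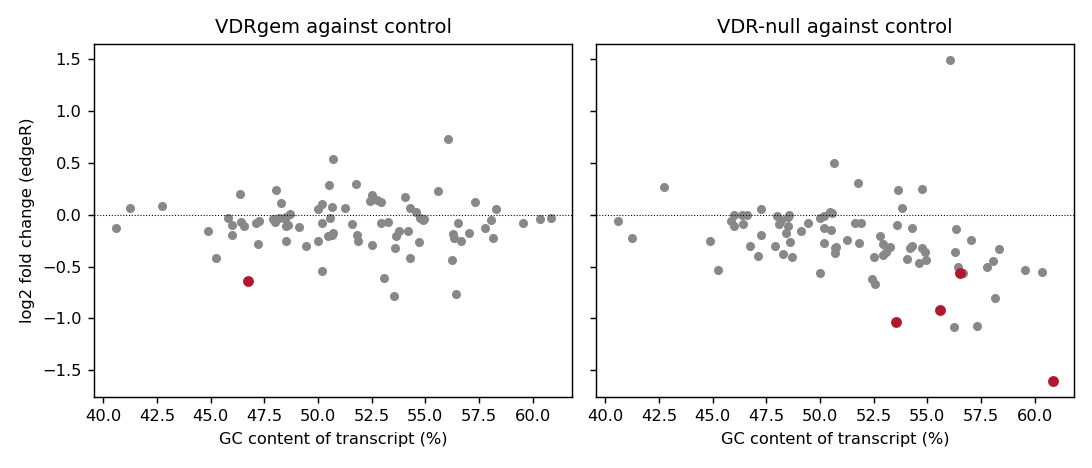
Log2 fold change of each member against the GC content of its principal transcript, for VDRgem (left) and VDR-null (right) against control. Points are the 83 tested members, red where the adjusted p was under 0.05; the right panel slopes down towards high GC (Spearman correlation -0.50) and the left does not (-0.05).

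Members tended to vary together from library to library. Over 13 libraries the median Pearson correlation between members was 0.36, with 2606 of 3403 pairs above 0, and it was 0.34 after the group means were taken out. The first principal component of the members held 49.2% of their variance. These values were not computed for other genes, so they do not set the members apart. Members lie on 19 chromosomes, and 4 of them, Rpl3, Rpl8, Rpl30 and Rpl37, share chromosome 15 with Vdr. They lie 17.8, 20.9, 63.4 and 92.7 Mb from it.

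Few other genes of protein synthesis passed against control by edgeR. Their lists are shorter than that of the members, so these counts do not set them apart from the members. Of 20 translation factor genes tested, edgeR called 1 lower and 0 higher in VDR-null, with a median log2 fold change of -0.09. The one that fell was Tpt1, a growth-related protein whose transcript also starts with pyrimidines, at -1.79 (SE 0.37, edgeR adjusted p = 0.0406). Eef2, the elongation factor that acts at the stalk, had -0.40 (SE 0.12, edgeR adjusted p = 0.0763). Of 30 ribosome assembly genes 0 passed in either direction, with a median of 0.01; Fbl, the methylase of ribosomal RNA, had -0.80 (SE 0.24, edgeR adjusted p = 0.0807). Of 14 genes for RNA polymerase I and its factors 0 passed, with a median of 0.01. In VDRgem against control, 0 translation factor, 0 assembly and 0 polymerase I genes passed, with medians of -0.08, -0.1 and -0.12 in that order. At an unadjusted p under 0.05, 8 assembly genes were lower and 0 higher in VDRgem, and 6 lower and 1 higher in VDR-null; DESeq2 called 5 lower and 0 higher in VDRgem, and 4 lower and 1 higher in VDR-null. For polymerase I genes the unadjusted counts were 4 lower and 1 higher in VDRgem and 2 lower and 1 higher in VDR-null, with 1 called lower and 0 higher by DESeq2 in each. For translation factors they were 2 lower and 0 higher in VDRgem and 3 lower and 1 higher in VDR-null, and DESeq2 called 1 and 2 lower and 0 higher. Over all genes, 11.6% were lower and 12.3% higher in VDRgem at that unadjusted p, and 11.1% and 11.7% in VDR-null. DESeq2 called 6.19% of all genes lower and 7.09% higher in VDRgem, and 5.48% and 4.99% in VDR-null. By edgeR these shares were 3.82% and 4.8% in VDRgem and 0.656% and 0.678% in VDR-null.

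Between the mutants, Tpt1 and Eef2 were called higher in VDRgem, at 1.67 (SE 0.41, edgeR adjusted p = 0.0162) and 0.46 (SE 0.13, edgeR adjusted p = 0.0301). Of the 30 assembly genes, 9 were lower in VDRgem than in VDR-null and 1 higher, against 8.18% and 10.6% of all genes, with a median of -0.08. Dkc1, which modifies ribosomal RNA, had -0.54 (SE 0.13, edgeR adjusted p = 0.0153) and Utp15, of the small subunit processome, -0.42 (SE 0.1, edgeR adjusted p = 0.0132). These genes are active in dividing cells, and the proliferation marker score was 4.34 to 4.51 log2 CPM in VDRgem, 4.42 to 5.6 in VDR-null and 5.12 to 5.50 in control. Of its 21 genes, edgeR called 20 lower in VDRgem than in control (median log2 fold change -0.98) and 17 lower than in VDR-null (median -0.81). In VDR-null against control it called 0, with 2 lower at an unadjusted p under 0.05 and 0 by DESeq2. Its part in the assembly genes was not tested.

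Genes of mitochondrial ribosomal proteins and respiratory chain subunits were set beside the cytosolic members. In VDR-null against control, edgeR called 3 of 77 mitochondrial ribosomal protein genes lower and 0 higher, with a median log2 fold change of -0.1. Those that fell were Mrpl2 at -0.52 (SE 0.1, edgeR adjusted p = 0.0385), Mrpl54 at -0.61 (SE 0.12, edgeR adjusted p = 0.0385) and Mrps11 at -0.37 (SE 0.08, edgeR adjusted p = 0.0486). Of 78 respiratory chain genes it called 6 lower and 0 higher, with a median of -0.15; Uqcr10, a subunit of complex III, had -0.65 (SE 0.13, edgeR adjusted p = 0.0398). In VDRgem against control, 0 of 77 passed, with a median of -0.04, and 1 of 78 fell, with a median of 0.01. At an unadjusted p under 0.05, 6 of 77 mitochondrial ribosomal protein genes were lower and 0 higher in VDRgem, and 25 lower and 3 higher in VDR-null. DESeq2 called 1 lower and 0 higher in VDRgem and 11 lower and 1 higher in VDR-null. For the 78 respiratory chain genes the unadjusted counts were 5 lower and 0 higher in VDRgem and 31 lower and 3 higher in VDR-null, and DESeq2 called 1 lower and 0 higher in VDRgem and 23 lower and 2 higher in VDR-null. Over all genes, 11.6% were lower and 12.3% higher in VDRgem at that unadjusted p, and 11.1% and 11.7% in VDR-null. DESeq2 called 6.19% of all genes lower and 7.09% higher in VDRgem, and 5.48% and 4.99% in VDR-null. By edgeR these shares were 3.82% and 4.8% in VDRgem and 0.656% and 0.678% in VDR-null.

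Of 20 members known as Diamond-Blackfan anaemia genes, edgeR called 0 in VDRgem and 1 in VDR-null, Rps7, which was lower, with medians of -0.08 and -0.24. At an unadjusted p under 0.05, 2 were lower and 1 higher in VDRgem and 6 lower and 2 higher in VDR-null, and DESeq2 called 2 lower and 0 higher in VDRgem and 4 lower and 1 higher in VDR-null. Over all genes, 11.6% were lower and 12.3% higher in VDRgem at that unadjusted p, and 11.1% and 11.7% in VDR-null. DESeq2 called 6.19% of all genes lower and 7.09% higher in VDRgem, and 5.48% and 4.99% in VDR-null. By edgeR these shares were 3.82% and 4.8% in VDRgem and 0.656% and 0.678% in VDR-null. Regulators of ribosomal protein synthesis were counted as well. Of 20 genes of mTORC1, its regulators and the pyrimidine-start binding proteins, 2 fell in VDRgem, with a median of -0.03, and 0 passed in VDR-null, with a median of 0.02. Of 10 genes of the Myc family and its partners, 1 fell in VDRgem, with a median of 0.05, and 0 passed in VDR-null, with a median of -0.13. In VDRgem the unadjusted counts were 2 higher and 3 lower for the mTORC1 list and 1 higher and 2 lower for the Myc list, and DESeq2 called 2 and 1 lower. In VDR-null they were 2 higher and 3 lower for the mTORC1 list and 4 lower for the Myc list, and DESeq2 called 2 higher and 2 lower in the first and 2 lower in the second. Each mutant is compared with the same 5 controls.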

How the data were processed

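RNA was measured in 13 libraries of whole lower incisors. Strand-marking poly-A kits with an input of 300 ng RNA and 12 cycles of PCR were used, per the labels' protocols. The deposited values are raw counts per gene. The submitters' processing notes name HTSeq 0.6.1p1, the aligner STAR 2.5.3a, bcl2fastq 2.20.0.422 and the build mm10. They give no annotation release, counting mode, strand setting or filter. Every column was matched to a library by its name, and 91 genes had no symbol in GENCODE M21.

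All 13 libraries entered 1 edgeR 4.0.16 quasi-likelihood fit in R 4.3.3, with 1 mean for each group, no covariate, TMM scaling and filterByExpr (minimum count 10), which kept 17837 genes. A gene was called where its p, adjusted by Benjamini-Hochberg over all of them, was under 0.05. CPM are TMM-scaled, and list scores average log2 CPM (prior count 2) over a list. Length, GC content and unique stretches come from the principal transcript. The fit was tested on simulated counts with 200 changed genes.

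Members, gene lists and the rule for named genes were chosen with earlier results of these data known. That rule took up to 8 called members each way by p, 4 each way by fold, the 6 highest and 6 lowest members, the stalk, the Mdm2-binding pair and the paralogues; Rpl18 and Rpl27 were named beside a count after their values were seen. Values of some members that the rule named are not reported here. Alternatives were DESeq2 1.42.0, limma-voom (limma 3.58.1), other scalings, no low-count filter, counts of processed copies added to their parent gene, a keratinocyte covariate, only the groups compared, leaving out libraries, and, chosen after seeing the data, GC and length trend offsets (splines with 5 degrees of freedom). Figures were drawn with matplotlib 3.10.9.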

Additional observations from a re-analysis of the deposited data

Results flagged for a closer look

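In 48 groups of 5 libraries of the named members, 3 held a library far from the others, and chance gives about 1 in 20. Rpl38 was high in VDR-null 1, at 0.430 CPM, and low in control 5, at 0.305 CPM. Rps10 was high in control 2, at 3.03 CPM, beside 1.98 to 2.09 CPM in the other controls.

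The VDRgem and VDR-null effects share their controls, so their difference is the log2 fold change between the mutants, which was past the threshold for 14 members in edgeR's quasi-likelihood test. Among them it was 1.57 for Rpl36, 1.19 for Rplp1, 1.15 for Rplp2, 0.87 for Rps21, 0.85 for Rps27 and 0.76 for Rpl27. It was 0.51 for Rplp0, 0.50 for Rps9, 0.49 for Rpl37, 0.48 for Rps2 and 0.38 for Rpl18. It was -0.45 for Rpl15 and -0.51 for Rpl19.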

How the results depend on the processing

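The median log2 fold change of the members in VDR-null against control was negative in every alternative run (-0.28 to -0.23 when 1 library was left out), but the 4 calls ran from 0 to 23 when 1 library was left out. The calls in that comparison were 25 with DESeq2, 22 with only the 2 groups compared, 21 without VDRgem 1 and 2 together, 8 without a low-count filter, 8 with processed copies added, 7 with library totals, 1 with the GC offset and 0 with the GC and length offset. The 22 calls rest on 82 tested members. Among all genes in that comparison, 10.5% were called with DESeq2, 4.16% with only the 2 groups compared and 0.664% without a low-count filter. This share was 1.54% with processed copies added, 1.95% with library totals, 0.191% with the GC offset and 0.252% with the GC and length offset. In the main fit it was 1.33%. In VDRgem against control, 1 call became 0 to 4 when 1 library was left out and 6 with library totals. It became 5 with the GC and length offset, 4 with the GC offset or processed copies and 3 with DESeq2. With only the 2 groups compared it became 2, and without a low-count filter or with the keratinocyte covariate 0. Over all genes, 12.1% were called with library totals, 12.7% with the GC and length offset and 11.3% with the GC offset. The share was 8.64% with processed copies, 13.3% with DESeq2, 11.2% with the 2 groups compared, 4.38% without the filter and 0 with the covariate. The median of -0.08 in VDRgem against control was -0.20 to 0.06 when 1 library was left out. It was -0.25 with library totals, -0.41 without VDRgem 1 and 2 and -0.36 with the covariate. Between the mutants, 14 calls became 2 to 34 when 1 library was left out. They became 9 with library totals, 4 with only the 2 groups compared and 0 with the covariate, against 27.6%, 4.3% and 0.0729% of all genes. That median of 0.14 was 0.02 to 0.32 when 1 library was left out, -0.04 with library totals, -0.13 without VDRgem 1 and 2, -0.21 with the covariate and 0 with the GC and length offset. Library totals moved the median of all genes by -0.17 in VDRgem against control and by -0.16, to -0.19, between the mutants. The causes were not tested.

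Single members also changed sign. In VDRgem against control, without VDRgem 1 and 2, with the covariate and with library totals where it turned, the log2 fold change was -0.41, -0.49 and -0.06 for Rplp0 and -0.52, -0.79 and -0.06 for Rplp1. Without VDRgem 1 and 2 and with the covariate it was -0.50 and -0.58 for Rplp2 and -0.28 and -0.24 for Rps16; Rpl3l was -0.08 with the covariate, Rps13 was -0.06 with copies added, and Rplp1 was -0.01 with the GC offset and 0 with the GC and length offset. When 1 library was left out, Rplp0 reached -0.13 without VDRgem 1, Rplp1 ran from -0.17 to 0.36 (0 without control 5) and Rplp2 from -0.04 to 0.49. Between the mutants, the covariate gave -0.08 for Rps9, -0.06 for Rpl37, -0.03 for Rps2, -0.04 for Rpl18 and -0.21 for Rplp0. Rpl18 was -0.07 with the GC and length offset, Rplp0 -0.02 without VDRgem 1 and 2, and Rpl3l ran from -1.34 to 0.10 (0.10 without VDR-null 3). Where VDRgem keeps 1 library, its spread is taken to be that of the other groups.

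No paired analysis was possible because the labels give no replicate numbers, litters or batches. Depth limits the 24 members with under 100 counts in some library, and 53 members have under 50% unique sequence, whose part in their levels was not tested. The members' share of counts in VDR-null was 0.788 to 0.847 times that of control when 1 library was left out and 0.801 times without the 20 most abundant other genes.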
